A study of Mus musculus with 2 samples.

Results

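The 10 genes described here encode the enzymes and carriers that make prostaglandin E2 (PGE2) from arachidonate, move it across membranes and inactivate it. They were chosen by name: Pla2g4a, Ptgs1, Ptgs2, Ptges, Ptges2, Ptges3, Abcc4, Slco2a1, Hpgd and Cbr1. All 10 had a row among the 23420 gene symbols of the deposited count table, and 9 of them reached 1 CPM in at least 1 library, the minimum used for comparing libraries. CPM is a count divided by the scaled size of its library. Ptges did not reach it. The study sequenced stranded total RNA libraries of CE1-4, a cultured line of mouse prostate cancer, from cells given PGE2 for 6 h and from cells left untreated. Each group was 1 library of the same line, with 17582808 counts in the treated and 16908429 in the untreated library, so 1 CPM stood for 17.6 counts in the treated and 16.9 in the untreated library. The labels used here give no PGE2 dose, no vehicle and no culture time for the untreated cells, so any change due to vehicle or culture time and any change due to PGE2 cannot be told apart. The series title names COX-2, the product of Ptgs2, and prolactin signaling between tumor and stroma.

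With 1 library per group there is no replicate check and no p-value. Intervals on levels are exact 95% Poisson intervals and intervals on ratios are 95% Clopper-Pearson intervals from the counts of both libraries. A count of 0 is instead given a limit of 3 counts, a 1-sided bound that lies below the upper end of the 2-sided Poisson interval. These intervals and limits cover counting error only, so a ratio compares these libraries and not the conditions. In bulk RNA a smaller share of cells that express a gene and less of its RNA per cell cannot be told apart.

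PGE2 is made in steps. A phospholipase A2 frees arachidonate from membrane lipids, a cyclooxygenase turns it into the unstable endoperoxide PGH2, and a terminal synthase isomerises PGH2 to PGE2. The mediator leaves the cell by diffusion or through carriers, acts on receptors of the EP family, and is taken up again and oxidised to an inactive keto form. In many epithelial tumors COX-2 and the inducible terminal synthase are induced together, while the oxidising enzyme is often reduced.

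The cell type label was checked against marker lists. Of 12 markers of prostate luminal epithelium 10 reached 1 CPM in at least 1 library, among them the keratin gene Krt8 at 1276 CPM in the treated and 1256 CPM in the untreated library, and the prostate transcription factor gene Hoxb13 with 268 and 267 counts. Pbsn, encoding the secreted prostate protein probasin, had 0 counts in both libraries. Of 12 mesenchymal markers 9 were tested, led per length by the filament gene Vim at 2096 CPM in treated and 2029.6 CPM in untreated cells. Of 6 basal markers 3 were tested, led by the integrin gene Itga6 with 3007 counts in treated and 2614 in untreated cells. The others tested were Krt14 (279 and 225 counts) and Krt15 (96 and 107). Krt5 (2 and 0), Krt17 (13 and 8) and Trp63 (7 and 6) did not reach 1 CPM. Small ratios with intervals that exclude 1 were also seen among these markers. Of the 10 tested luminal markers 4 had an interval above 1 (Krt18, Krt19, Cdh1 and Cd24a, with log2 ratios from 0.04 to 0.08) and 1 below it (Tmprss2, -0.15), against shares of 6.61% above and 5.65% below over all tested genes. Of the basal markers, Itga6 had a log2 ratio of 0.14 (0.06 to 0.21). Of the 9 tested mesenchymal markers 1 had an interval above 1 (Vim, 0.05, 0.03 to 0.07) and 1 below it (Cdh2, -0.06, -0.12 to -0.0047). The shares over all tested genes are not matched on abundance, and intervals narrow as counts rise. Of marker lists of other cell types, all 6 endothelial markers had at most 3 counts in both libraries, as had 7 of the 8 leukocyte and mast cell markers. Tek, the top endothelial marker per length, had 0 counts in treated and 1 in untreated cells, and Cd68, the top one of leukocytes, 66 and 70. Of the 5 platelet markers 1 reached 1 CPM, Gp1ba with 25 and 21 counts. Summed over each list, these markers came to 0.170 CPM for endothelium, 3.80 for leukocytes and mast cells and 2.33 for platelets in treated cells, and to 0.119, 4.15 and 1.90 CPM in untreated cells. Their part in the ratios below was not tested.

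In both libraries Ptgs2 was the most abundant of the 10 transcripts per length. Ptges3 was the 1 abundant transcript of the terminal synthase genes, and the degrading enzyme gene Hpgd was among the lower 5. The counts measure RNA and do not show which synthase makes PGE2 in these cells. Levels between genes were compared as CPM per kb of merged exon length. Ptgs2 stood highest at 903 CPM per kb in the treated and 902 in the untreated library, followed by Ptges3 (328 and 293), Ptgs1 (142 and 144), Pla2g4a (77.5 and 76.4) and Abcc4 (21.5 and 21.5). Cbr1 (6.46 and 6.41), Hpgd (5.73 and 7.05), Slco2a1 (4.28 and 4.63), Ptges2 (2.30 and 1.85) and Ptges (0.101 and 0.151) made up the lower end. Cbr1 and Hpgd exchanged places between the libraries and their intervals overlapped in each, whereas every other pair of neighbours in this order had separate intervals. None of the 9 tested genes passed the size rule, a ratio of at least 2-fold with an interval that excludes 1, which 35 of 11387 tested genes (0.307%) passed. The interval of each of these 9 genes lay inside the 2-fold limits on either side.

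**Figure D1:**
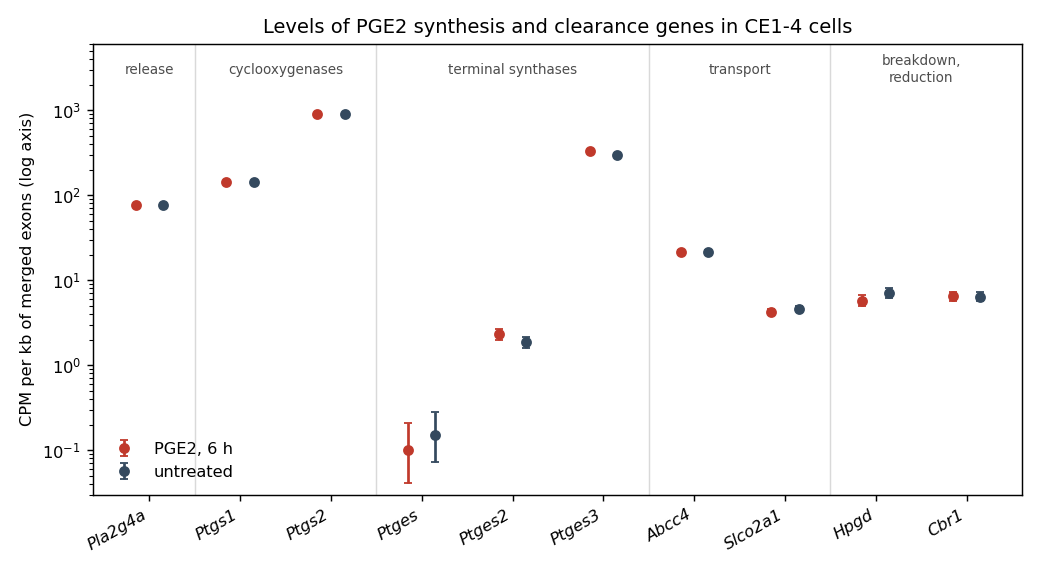
Levels of the 10 genes in CPM per kb of merged exons on a log axis, in the PGE2-treated (red, left) and the untreated library (dark, right), ordered by step of the pathway; bars are exact 95% Poisson intervals and are often smaller than the points. Ptgs2 lies near 903 and 902 CPM per kb, Ptges near 0.101 and 0.151.

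Pla2g4a encodes the cytosolic phospholipase A2 that prefers arachidonate at the central position of phospholipids and acts when calcium brings it to membranes. It had 8735 counts in the treated and 8233 in the untreated library, or 495 CPM (485 to 506) and 488 CPM (478 to 499). The log2 ratio of treated over untreated was 0.02 (-0.02 to 0.06). The difference lay within counting error. The gene lies on chromosome 1 from 149829618 to 149961290 on the minus strand (GRCm38), 138740 bases away from Ptgs2.

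Of 19 other phospholipase A2 genes, 4 reached 1 CPM, and 12 had at most 3 counts in both libraries. Pla2g16, a phospholipase of another family, known from adipose tissue, was the highest of them per length, with 12.6 CPM per kb in treated and 13.1 in untreated cells. Pla2g15, a lysosomal enzyme, stood at 4.57 and 5.02 CPM per kb, Pla2g12a at 3.50 and 3.53, and the calcium-independent Pla2g6 at 1.24 and 1.23. The secreted group IIA enzyme gene Pla2g2a had 0 counts in both libraries, which allows up to 0.170 CPM in the treated and 0.178 CPM in the untreated library, taken as 3 counts. Each of the 4 tested genes had an interval that included a ratio of 1, with a median log2 ratio of -0.03.

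Of the genes that make arachidonate or hold it in lipids, the ligase genes Acsl4 and Acsl5 were the most abundant per length. Acsl4, encoding the acyl-CoA ligase that prefers arachidonate, had 34028 counts in the treated and 31241 in the untreated library, or 357 and 343 CPM per kb, and a log2 ratio of 0.06 (0.04 to 0.08). It was the 1 gene of the 15 tested of 18 in this list with an interval above 1, and none had one below 1. A count of 1 in 15 is near the 6.61% of all tested genes with an interval above 1. Acsl5, a ligase of broader use, was at 226 and 225 CPM per kb. Lpcat3, which esterifies arachidonate into lysophospholipids, was at 14.8 and 14.8. Fads1 and Fads2, the desaturases that make arachidonate from linoleate, were scarce, with 18 and 2 counts in treated and 14 and 2 in untreated cells. Fads1 reached 1 CPM in the treated library alone. The median log2 ratio of the 15 was 0.01, against -0.0014 over all tested genes.

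The bases around the annotated starts of 4 genes are shown because these genes carry the contrast within the pathway: Ptgs2 and Ptgs1, the cyclooxygenases at unlike levels, and Ptges and Ptges3, the terminal synthases at the low and the high end. They run 5′ to 3′ on the gene's own strand, from 250 bases before to 50 after the start in RefSeq on GRCm38.p6, in the order chr1:150099781-150100080 (plus strand), chr2:36230176-36230475 (plus), chr2:30903248-30903547 (minus) and chr10:128058732-128059031 (plus). Capitals mark matches, on either strand, to 4 motifs. They are TGACG, the core of the response element for cAMP signaling, CACGTG, an E-box bound by helix-loop-helix factors, TATAAA, the box found upstream of some starts, and GGGCGG, the box bound by Sp factors.
Ptgs2: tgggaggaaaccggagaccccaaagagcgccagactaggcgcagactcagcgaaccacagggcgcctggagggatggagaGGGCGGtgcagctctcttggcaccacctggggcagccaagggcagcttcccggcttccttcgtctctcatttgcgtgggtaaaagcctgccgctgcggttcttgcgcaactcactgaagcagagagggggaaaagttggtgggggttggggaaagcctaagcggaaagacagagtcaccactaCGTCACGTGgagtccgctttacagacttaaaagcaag
Ptgs1: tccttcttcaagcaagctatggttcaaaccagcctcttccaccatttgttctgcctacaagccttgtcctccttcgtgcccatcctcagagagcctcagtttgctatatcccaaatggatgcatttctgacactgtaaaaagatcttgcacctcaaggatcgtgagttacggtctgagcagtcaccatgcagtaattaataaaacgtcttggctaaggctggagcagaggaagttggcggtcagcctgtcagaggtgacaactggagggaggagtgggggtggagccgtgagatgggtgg
Ptges: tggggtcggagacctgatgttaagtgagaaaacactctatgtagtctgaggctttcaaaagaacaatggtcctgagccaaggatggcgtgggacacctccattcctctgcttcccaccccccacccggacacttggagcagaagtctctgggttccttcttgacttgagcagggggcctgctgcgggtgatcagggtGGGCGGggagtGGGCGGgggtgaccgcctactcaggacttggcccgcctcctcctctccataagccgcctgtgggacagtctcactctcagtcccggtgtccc
Ptges3: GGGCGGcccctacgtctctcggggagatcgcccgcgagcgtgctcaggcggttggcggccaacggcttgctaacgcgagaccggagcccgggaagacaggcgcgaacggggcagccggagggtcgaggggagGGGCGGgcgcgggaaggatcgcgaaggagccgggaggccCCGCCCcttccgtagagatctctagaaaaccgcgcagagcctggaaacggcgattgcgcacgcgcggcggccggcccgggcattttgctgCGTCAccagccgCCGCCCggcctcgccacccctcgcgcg

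All 10 genes matched this RefSeq table, through 12 windows. The RefSeq starts of Ptges and Ptges3 lie inside the GENCODE gene bounds given below. In the Ptgs2 window the response element core lies at positions 14 to 18 and the E-box at 17 to 22, counted from 1 at the annotated start, so they share letters. The Ptges3 window holds a core at 12 to 16 and 4 GC boxes, the Ptges window 2 GC boxes, and the Ptgs1 window none of the 4 motifs. The response element core was found in 2 of these 12 windows, against 20.8% of all 32851 windows in the table. The E-box was found in 3 of the 12 (7.15% of all windows), the TATA box in 3 (13.6%) and the GC box in 6 (35.7%). Pla2g4a and Abcc4 have more than 1 window, and the TATA box match of Pla2g4a lies in its second window alone, at -200 to -195. Counted from the RefSeq starts, the TATA box match of Hpgd lies after the start, at 5 to 10. That of Slco2a1 lies before it, at -29 to -24. The GENCODE bounds of Hpgd begin downstream of its RefSeq start, and its match lies before them. Those of Slco2a1 begin upstream of its RefSeq start, so both placements depend on the annotation. The counts hold no measure of binding at these letters or of the starts used in these cells.

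Both cyclooxygenases were expressed, with Ptgs2 above Ptgs1. Ptgs2 encodes COX-2, the inducible enzyme, and had 72906 counts in the treated and 69686 in the untreated library, or 4135 CPM (4105 to 4165) and 4133 CPM (4102 to 4163). That was 0.415% of all counts in treated and 0.412% in untreated cells, rank 10 and rank 11 of all genes by CPM and rank 19 in both per length. The ratio of treated over untreated differed from 1 by 0.0621%, with an interval from -0.973% to 1.11%. Ptgs1 encodes COX-1, the form found constitutively in many tissues, and had 9730 counts (552 CPM, 541 to 563) in treated and 9429 (559 CPM, 548 to 571) in untreated cells. Its log2 ratio was -0.02 (-0.06 to 0.02). Neither cyclooxygenase differed between the libraries beyond counting error.

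Per kb of merged exons Ptgs2 was 6.35-fold (6.22 to 6.49) above Ptgs1 in treated cells and 6.27-fold (6.13 to 6.40) in untreated cells. By the length of the longest transcript the fold was 4.82 and 4.76, and by coding length 7.47 and 7.37. Ptgs1 itself had rank 285 per length in the treated and 278 in the untreated library. Ptgs2os, a noncoding transcript of the opposite strand that begins 67 bases before Ptgs2 (chromosome 1, 150074873 to 150099963), was matched by its synonym and had 43 counts in treated and 48 in untreated cells, a log2 ratio of -0.22 (-0.85 to 0.40). Ptgs2 (chromosome 1, 150100031 to 150108227) overlaps no other annotated gene. Ptgs1 (chromosome 2, 36230426 to 36252272) overlaps 1 model on the other strand, which has no row.

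The 3 terminal PGE2 synthase genes were expressed at unlike levels, with Ptges3 far above the others. Ptges, encoding the membrane-bound microsomal synthase that is usually induced together with COX-2, had 7 counts in the treated and 10 in the untreated library, 0.397 CPM (0.160 to 0.818) and 0.593 CPM (0.284 to 1.09). The log2 ratio was -0.55 with an interval from -2.21 to 0.96, so at this depth a 2-fold lower level in treated cells was not excluded. A 2-fold higher level lay just above the interval. Per kb, Ptgs2 exceeded Ptges 8939-fold (4338 to 22235) in treated and 5981-fold (3252 to 12473) in untreated cells, and by coding length 2638-fold and 1765-fold. Ptges2 exceeded Ptges by less, 22.8-fold (10.8 to 57.3) per kb in treated and 12.3-fold (6.504 to 26.1) in untreated cells, and by coding length 11.7-fold and 6.30-fold. Ptges lies on chromosome 2 from 30889471 to 30929863 on the minus strand.

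Ptges2 encodes a second membrane-associated synthase that is made constitutively. Ptges2 (chromosome 2, 32395896 to 32405772, plus strand) had 205 counts in treated and 158 in untreated cells, 11.6 CPM (10.1 to 13.3) and 9.37 CPM (7.97 to 11.0). The log2 ratio was 0.31 (0.0050 to 0.62), so its interval lay just above 1. Among 3012 genes whose summed counts were within 2-fold of its own, log2 ratios had a standard deviation of 0.17, and 188 (6.24%) were as far from 1 as Ptges2. With a 99% interval, or with scaling on totals without Rn45s, Lars2 and Malat1, the interval of Ptges2 included 1.

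Ptges3 encodes the cytosolic synthase, better known as p23, a cochaperone of HSP90. It had 12833 counts in treated and 10966 in untreated cells, 728 CPM (715 to 741) and 650.3 CPM (638 to 663). The treated level was 11.9% above the untreated one (9.10% to 14.8%), a log2 ratio of 0.16 (0.13 to 0.20). Of the 432 genes with summed counts within 2-fold of its own, which had a standard deviation of 0.057 in log2, 1 was as far from 1 and none had a higher ratio. Its ratio was the highest of the 622 genes with at least 10000 summed counts and number 98 of the 5413 with at least 1000, both minimums being chosen after its values were seen. Per kb it stood 143-fold (124 to 165) above Ptges2 in treated and 158-fold (135 to 186) in untreated cells. Ptges3 (chromosome 10, 128058954 to 128077272, plus strand) overlaps no annotated gene.

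Ptges2 and Ptges3 were thus the 2 tested genes of the 9 with an interval above 1, where 6.61% of all tested genes had one. None had an interval below 1, where 5.65% of all tested genes did. Counting intervals narrow as counts rise, so these shares are not matched on abundance. The median log2 ratio of the 9 was 0.00090, with 6 above and 3 below 0, against -0.0014 over all 11387.

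**Figure D2:**
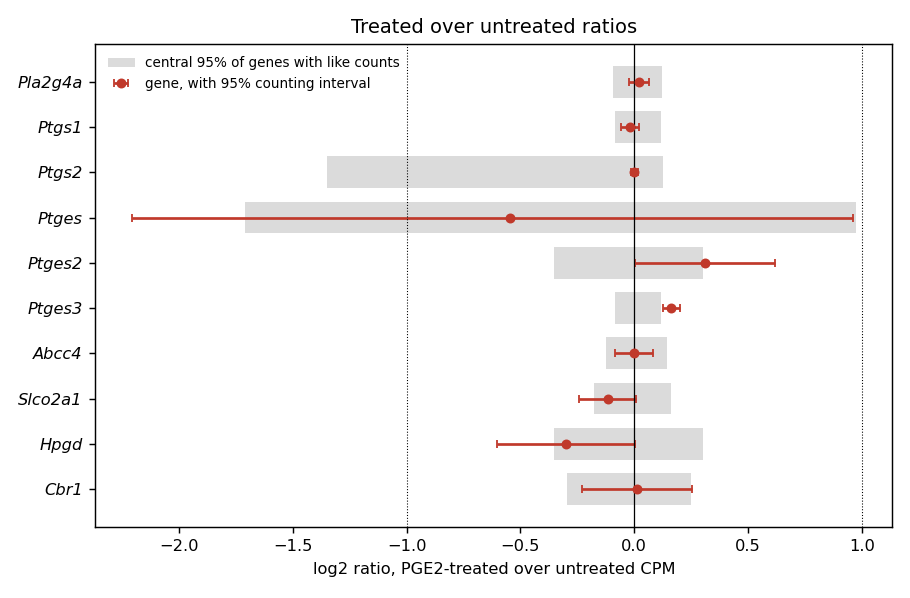
Log2 ratios of treated over untreated CPM for the 10 genes, with 95% counting intervals in red. Grey bars span the central 95% of tested genes with summed counts within 2-fold, and dotted lines mark 2-fold. Ptges3 at 0.16 and Ptges2 at 0.31 lie at the upper side and Hpgd at -0.30 at the lower side. The wide grey bar of Ptgs2 rests on 24 genes. That of Ptges rests on 131 genes that reached 1 CPM in at least 1 library, which Ptges did not. At such low counts this minimum favors genes with unequal counts, so the bar does not give the usual spread at that depth.

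Counts for synthases of other prostanoids were low, at 3.74 CPM in treated and 2.79 CPM in untreated cells summed over 7 genes, a sum that may miss reads of Akr1b3. Ptgds and Tbxas1, encoding a prostaglandin D synthase and the thromboxane synthase, had 0 counts in both libraries, as had the prostacyclin synthase gene Ptgis. Hpgds, the hematopoietic prostaglandin D synthase gene, had 4 counts in treated and 9 in untreated cells. Akr1c18, encoding a reductase known as a prostaglandin F synthase and as the enzyme that inactivates progesterone, was the highest of this list per length, with 44 counts in treated and 27 in untreated cells and a log2 ratio of 0.63 (-0.08 to 1.39). Fam213b, another prostaglandin F synthase gene, had 18 and 11 counts and reached 1 CPM in the treated library alone. Akr1b3, the aldose reductase gene, was listed with 0 counts in both. How reads shared with near-identical copies were counted is not given in the sources used here, so that 0 is not read as absence of the transcript. Of the 7 genes of the list 2 were tested, and both intervals included 1.

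Genes of an export pump and of an uptake carrier for PGE2 were both expressed. Abcc4, encoding the export pump MRP4, had 2427 counts in treated and 2321 in untreated cells, 138 CPM (132 to 143) and 138 CPM (132 to 143), and a log2 ratio of 0.00015 (-0.08 to 0.08). Slco2a1, encoding the prostaglandin uptake transporter, had 1021 and 1058 counts, 57.9 CPM (54.4 to 61.6) and 62.7 CPM (59.0 to 66.6), and a log2 ratio of -0.12 (-0.24 to 0.0098). Neither ratio differed from 1 beyond counting error. Per kb of merged exons Abcc4 stood 5.04-fold above Slco2a1 in treated and 4.65-fold in untreated cells, but by coding length the folds were 1.15 (1.07 to 1.24) and 1.06 (0.990 to 1.15). The merged exons of Slco2a1 span 13545 bases and its longest transcript 7122, so its place depends on the length used. Abcc4 lies on chromosome 14 from 118482692 to 118706219 on the minus strand and Slco2a1 on chromosome 9 from 102988712 to 103096002. Each overlaps small or noncoding models that have no row.

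Of 12 other candidate prostaglandin transporters 5 were tested. Abcc1, a broad export pump, led per length among them at 23.2 CPM per kb in treated and 23.7 in untreated cells. Abcc5, a pump of the same family, had 2255 and 2232 counts, and Slco3a1, an organic anion transporter reported to carry prostaglandins, was at 7.02 and 6.98 CPM per kb. Abcg2, encoding the pump BCRP, had 780 and 669 counts and a log2 ratio of 0.16 (0.0063 to 0.31), the 1 interval above 1 among the 5, where 6.61% of all tested genes had one. The uptake carrier gene Slco2b1 had 0 counts in both libraries. The median log2 ratio of the 5 was -0.03.

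Hpgd and Cbr1, the genes of breakdown and reduction, were low. Hpgd encodes the dehydrogenase that oxidises PGE2 to its inactive keto form and is the main route of inactivation. It had 170 counts in the treated and 200 in the untreated library, 9.64 CPM (8.25 to 11.2) and 11.9 CPM (10.3 to 13.6). The log2 ratio was -0.30 (-0.60 to 0.0035), so its interval just included 1. Among 3043 genes with summed counts within 2-fold, 226 (7.43%) were as far from 1. Ptgs2 exceeded Hpgd 158-fold (136 to 184) per kb in treated and 128-fold (111 to 148) in untreated cells, and Ptgs1 exceeded it 24.8-fold and 20.4-fold. Hpgd lies on chromosome 8 from 56294585 to 56321043.

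Cbr1 encodes a carbonyl reductase that can convert PGE2 to prostaglandin F2alpha and also reduces many other carbonyls. It had 291 counts in treated and 276 in untreated cells, 16.5 CPM (14.7 to 18.5) and 16.4 CPM (14.5 to 18.4), and a log2 ratio of 0.01 (-0.23 to 0.25). Cbr1 (chromosome 16, 93605853 to 93610505) has a paralog, Cbr3, with 63 and 64 counts, and reads that match both could be split between them. Ptgr1, which reduces the keto products further, was the highest of the other reductases per length, with 1227 counts in treated and 1163 in untreated cells, and Ptgr2, of the same function, stood at 9.77 and 10.5 CPM per kb. Each of the 5 tested of 7 in that list had an interval that included 1, and their median log2 ratio was 0.01.

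**Figure D3:**
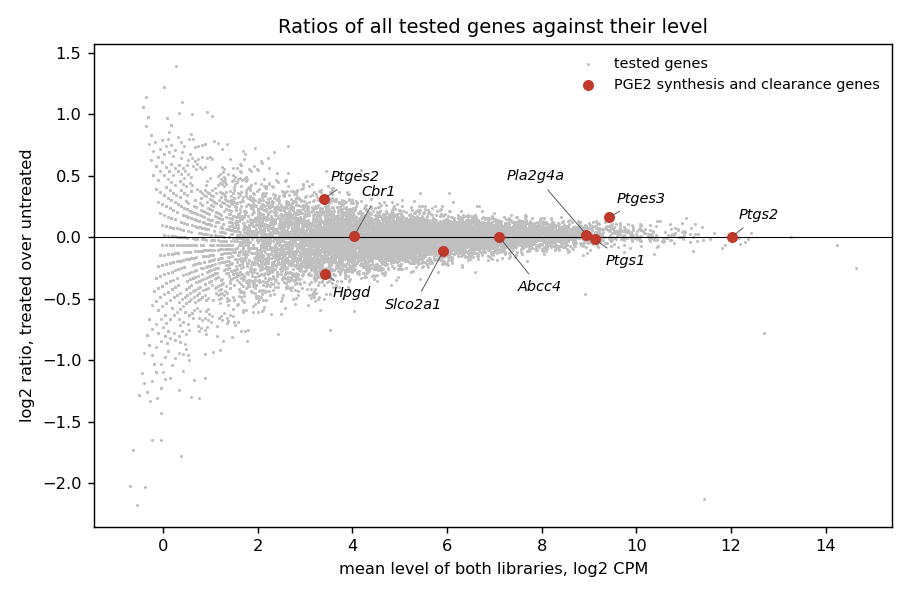
Log2 ratio of treated over untreated against the mean level in log2 CPM for all 11387 tested genes (grey), with the 9 tested genes of PGE2 synthesis and clearance in red. Ptges3 lies above the band of genes at its level, while Ptgs2, Ptgs1, Pla2g4a and Abcc4 lie near 0.

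The competing fates of arachidonate were expressed unevenly. Alox5 and its partner Alox5ap, which start leukotriene synthesis, had 4 and 2 counts in treated and 3 and 3 in untreated cells. Alox15 had 0 counts in both, and Alox8 14 and 23 (log2 ratio -0.76, -1.85 to 0.24). Alox8 reached 1 CPM in the untreated library alone (1.36 CPM, against 0.794 in the treated one), which favors a ratio below 1. Further down, Lta4h, which makes leukotriene B4, was at 14.7 and 15.2 CPM per kb, and Ephx1, the microsomal epoxide hydrolase gene, was highest of the list at 189 and 205. The other epoxide hydrolase gene of the list, Ephx2, had 3 counts in treated and 1 in untreated cells. Of its cytochrome P450 genes, Cyp4f13 had 91 and 77 counts and Cyp2c44 1 and 1. Cyp2j6, Cyp2j9 and Cyp4a12a had 0 in both.

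In this branch 7 of 19 genes were tested and 2 had an interval below 1, against 5.65% of all tested genes. That share is not matched on abundance, and intervals narrow as counts rise. Mgst2, encoding a microsomal glutathione transferase able to make leukotriene C4, had 401 counts in treated and 474 in untreated cells and a log2 ratio of -0.31 (-0.50 to -0.11). Ephx1 had 6497 and 6729 counts and a log2 ratio of -0.11 (-0.16 to -0.07). The median of the 7, among them Alox8, was -0.11. Mgst2 was the 1 gene of the lists of arachidonate metabolism, besides Ptges2, with a ratio of at least 1.2-fold and an interval that excluded 1. Over all tested genes 0.975% passed that rule as higher and 1.92% as lower.

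**Figure D4:**
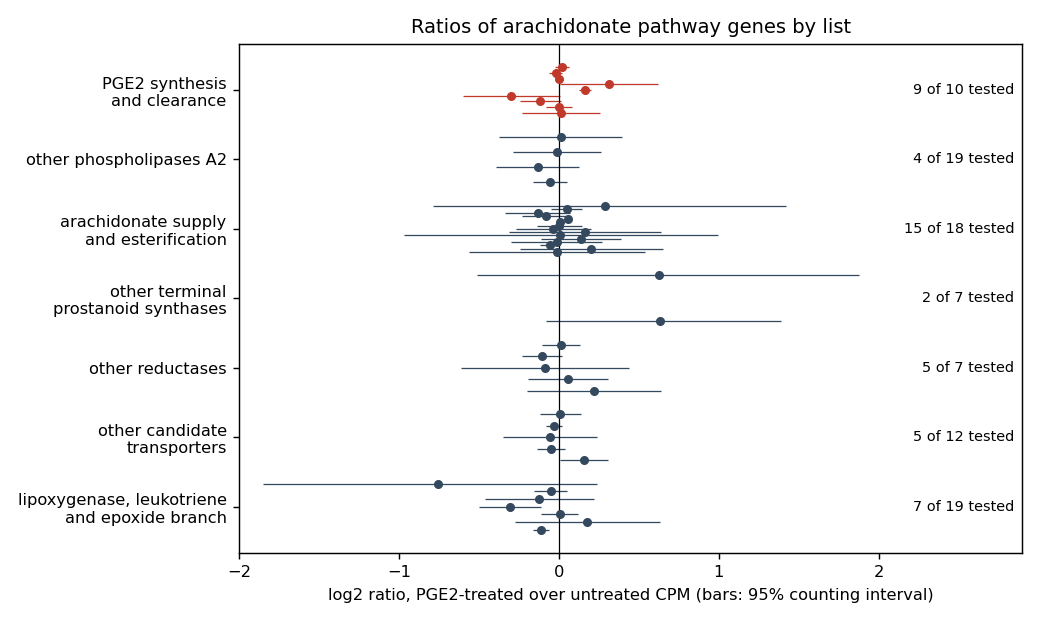
Log2 ratios of treated over untreated for tested genes of PGE2 synthesis and clearance (red) and of 6 further lists of arachidonate metabolism (dark), with 95% counting intervals and the number tested of each list. Most intervals include 0, and Mgst2 at -0.31 lies below it.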

How the data were processed

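RNA was extracted with a column kit and libraries were stranded, per the labels' protocols. Trimmomatic, TopHat2, Bowtie, HTSeq and the build mm10 are named in the submitters' processing notes. The sources used here give no tool versions, no annotation and no strand setting. The values deposited by the authors are raw read counts per gene symbol, without normalization. Column names equal the sample titles.

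Counts were scaled with edgeR 4.0.16 (TMM; R 4.3.3), with factors of 1.003 for the treated and 0.997 for the untreated library. Log2 ratios used a prior of 0.5 counts. Genes reaching 1 CPM in at least 1 library, 11387, were compared. Interval coverage and ratio estimates were checked before use on simulated counts that held counting error alone and known library sizes. Spread between libraries and the scaling were not part of that check. Lengths, GC content and coordinates come from GENCODE M21 on GRCm38 (mm10) and gave a value for 99.3% of these genes. Members and lists were chosen with earlier results of these data known. Named besides the 10 genes were the top gene per length of each list, genes of at least 1.2-fold with an interval excluding 1, and others chosen after their values were seen. List medians describe 2 libraries and are no test. The values of some marker genes are not reported here.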

Additional observations from a re-analysis of the deposited data

How the results depend on the processing

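No paired analysis was possible because each group holds 1 library, and for the same reason no library could be left out. The alternatives were 4 other scalings, a prior of 5 counts, subtraction of trends on abundance or on GC content and length, other minimums, a 99% interval, a 1.5-fold rule and 2 other length definitions. The count of genes past the size rule stayed at 0 under each of its alternatives. The count with an interval above 1 fell to 1, Ptges3 alone, with the 99% interval and with scaling on totals without Rn45s, Lars2 and Malat1. Under that scaling the count below 1 became 1, since Hpgd had an interval of -0.61 to -0.0054. It put the median over all tested genes at -0.010, and the other scalings put it between 0.0060 and 0.0065. Ptgs2 moved to -0.017 after the abundance trend was subtracted, outside its counting interval; the cause was not tested. Other ratios stayed within their intervals, with Ptges3 between 0.14 and 0.17, Ptges2 between 0.30 and 0.34 and Hpgd between -0.31 and -0.28. The signs of Ptgs2, Abcc4 and Pla2g4a turned under some alternatives, and with TMM scaling each of these had an interval that included 1. Of 45 pairs of genes, 42 kept their order of levels in the untreated library under either other length definition. Trends could not be subtracted for Ptges, which was under 1 CPM.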

Other observations

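The ratio of Ptges3 was set beside those of HSP90, its other cochaperones and related genes, among them the HSP70 gene Hspa8. This list was chosen after the values were seen and is given as values only. Of these 16 genes all were tested, 4 had an interval above 1 and 1 below, against 6.61% and 5.65% of all tested genes. Those shares are not matched on abundance, and intervals narrow as counts rise. The median log2 ratio of the 16 was 0.0084. Hsp90aa1, the stress-responsive HSP90 gene, had 36837 counts in treated and 32490 in untreated cells (log2 ratio 0.12, 0.10 to 0.14). Hsp90ab1, the constitutive one, had 36607 and 34666 (0.01, -0.0069 to 0.04). Ahsa1, which activates the ATPase of HSP90, had 1986 and 1701 (0.16, 0.07 to 0.25), and Ppid, a cyclophilin, 2619 and 2357 (0.09, 0.0070 to 0.17). Hspa8, the constitutive HSP70 gene, was at 0.04 (0.02 to 0.05), and Stip1, which links HSP70 to HSP90, had the interval below 1 (-0.06, -0.11 to -0.01). Ptges3l, a gene related to Ptges3, had 59 and 74 counts (-0.39, -0.91 to 0.12).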
